A study of Mus musculus with 6 samples.

Results

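Sox10, S100b, Cnp, Ncam1, Ngfr and Cdh19 are genes known from Schwann cells, the glia of peripheral nerves, and are described here in sorted mouse kidney cells. They were picked out of the table by symbol and make up 6 of the 31815 genes in the deposited table, each on a single row. The cells came from male mice of 9 to 12 weeks that carried Axin2CreERT2/+, R26RtdT/+ and Acta2-GFP and had bilateral renal ischemia reperfusion injury. All of them received tamoxifen on days 2 and 4, and the cortex and outer medulla were dissociated on ice and sorted by fluorescence on day 6. Kidneys 1, 2 and 3 each gave a library of tdT+GFP+ cells and a library of tdT-GFP+ cells, so that there were 3 libraries per group. Both groups carried the same alleles, the same injury and the same tamoxifen, and no uninjured kidney is analysed here. GFP driven by Acta2 sequences marks cells that use the smooth muscle actin promoter, which include smooth muscle cells, pericytes and activated fibroblasts. The tdT label is set in cells in which the Axin2 gene, a target of canonical Wnt signalling, drives CreERT2 while tamoxifen is present, and it stays on afterwards. Neither reporter was designed to mark Schwann cells.

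Schwann cells descend from the neural crest, ensheath and myelinate peripheral axons, and accompany the autonomic nerves that enter the kidney along its arteries. Their identity rests on the transcription factor Sox10, which acts with Egr2 and Pou3f1 to switch on the myelin genes, while neuregulin signalling through Erbb2 and Erbb3 keeps them alive and dividing. After nerve injury they return to an immature state in which Ngfr, the p75 low-affinity receptor of the neurotrophins, and the adhesion molecule Ncam1 are raised and Jun is a leading transcription factor. Sox10, S100b and Cdh19 are the more lineage-restricted of the 6 genes. Ngfr, Ncam1 and Cnp are also made by other cells, among them fibroblast-like and mesenchymal cells.

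The 6 genes fell into a near-absent and an abundant set of 3 genes each. The restricted Schwann cell genes Sox10, S100b and Cdh19 had 19, 17 and 2 counts in all 6 libraries together, whereas Cnp had 670 to 765 counts, Ncam1 2851 to 4736 and Ngfr 4859 to 6770 counts per library. No member was called different between tdT+GFP+ and tdT-GFP+ cells, and the ranges of the groups overlapped for all 6. Whether any of the 6 genes came from Schwann cells in these sorts was not tested, and the genes are called by their names below. In bulk libraries fewer cells of a type and less RNA per cell cannot be told apart.

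**Figure D1:**
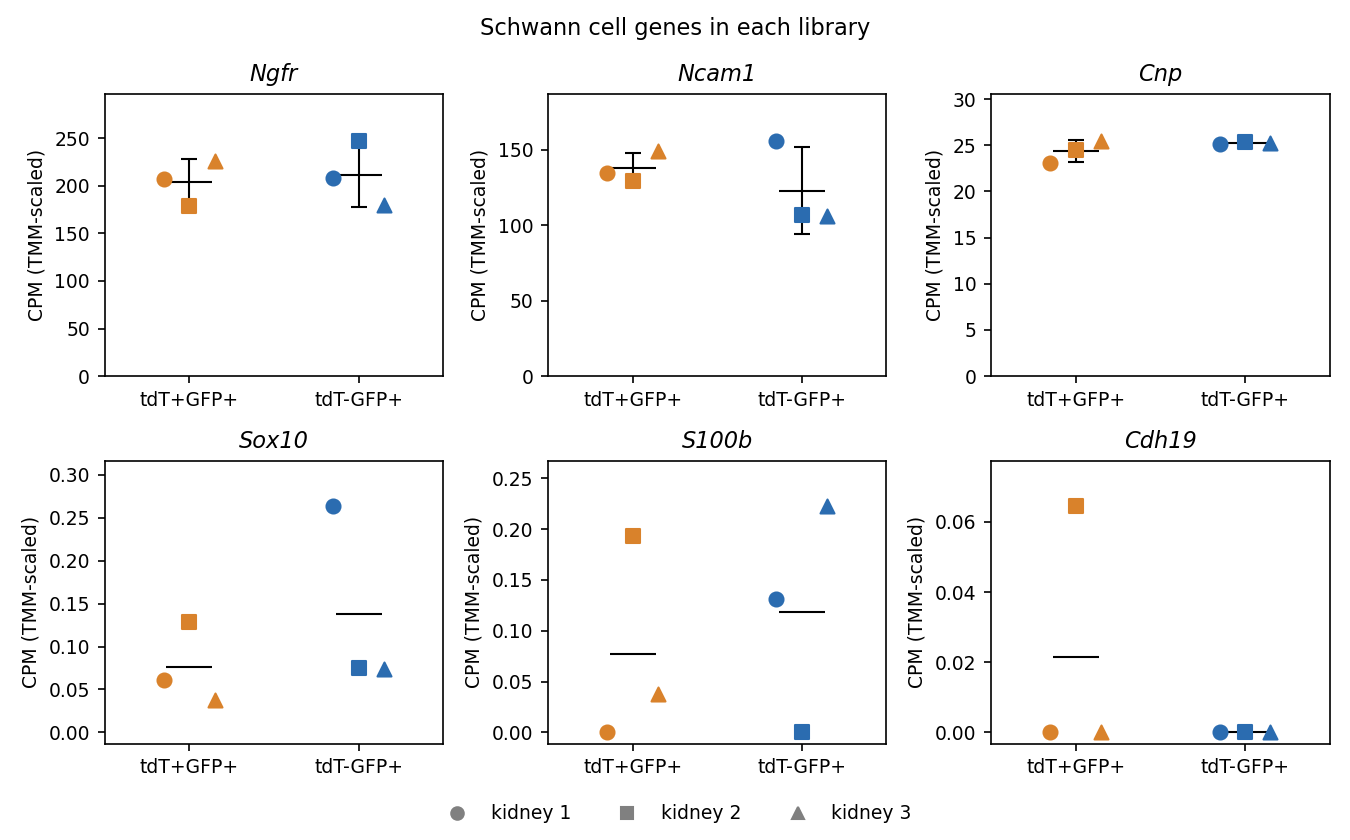
Level of each of the 6 genes in CPM, a count scaled to the library total (y axis, with a different scale for each gene, from 0 or just below it) in the 3 tdT+GFP+ and the 3 tdT-GFP+ libraries (x axis). Points are libraries, with 1 symbol per kidney, and horizontal marks are group means, with SD bars for Ngfr, Ncam1 and Cnp alone. The groups overlap for all 6 genes, and Sox10, S100b and Cdh19 lie below 0.3 CPM throughout.

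The deposited library totals ran from 25697348 to 33029933 counts, and 3 counts in a library corresponded to 0.0915 to 0.114 CPM. The sorted cells carried high levels of mesenchymal genes in both groups: the receptor gene Pdgfra stood at 1168 ± 103 and 1064 ± 194 CPM and Pdgfrb at 1577 ± 91.2 and 1520 ± 208 CPM (tdT+GFP+ before tdT-GFP+ cells here and below, SD, n = 3 each). Acta2, whose promoter sequences drive GFP, stood at 1577, 1416 and 1747 CPM in tdT+GFP+ cells and at 1588, 944 and 943 CPM in tdT-GFP+ cells. Axin2, the gene behind the tdT label, stood at 52.8, 29.7 and 64.2 CPM in tdT+GFP+ cells and at 43.0, 64.2 and 27.3 CPM in tdT-GFP+ cells. Both genes overlapped between the groups, with adjusted p = 0.499 for Acta2 and 0.907 for Axin2 in edgeR's quasi-likelihood test. That test called 0 of 15462 genes at an adjusted p under 0.05, a share of 0%, with a smallest adjusted p of 0.388. At an unadjusted p under 0.05 it held 1650 genes, or 10.7%, and the groups did not overlap for 2448 genes, or 15.8%. DESeq2 called 281 of 14559 genes, or 1.93%, of which 17 were higher and 264 lower in tdT+GFP+ cells. The count of 0 members called has to be read against these shares.

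The transcribed stretch of each gene was placed on the GRCm38 annotation, and all 6 genes are protein coding. Ngfr lies on the minus strand at chr11:95568818-95587735, Cnp on the plus strand at chr11:100574904-100591729 and Ncam1 on the minus strand at chr9:49502136-49798925. Sox10 lies on the minus strand at chr15:79154908-79165240, S100b on the plus strand at chr10:76253853-76261159 and Cdh19 on the minus strand at chr1:110888326-110977584. Cnp shares 154 exonic bases with Dnajc7 on the opposite strand, and Ncam1 shares 417 with the antisense gene Gm11149, which had 0 to 4 counts per library. Dnajc7 had 1804 to 2242 counts per library, so that reads in the shared stretch could be assigned to either gene if the counting did not use the strand. S100b lies opposite Dip2a and shares 0 exonic bases with it.

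Upstream windows were available from RefSeq for 3 of the 6 genes, the abundant Ngfr and Cnp and the near-absent S100b, and all 3 are shown. Each run holds 200 bases, from 250 to 51 bases before the RefSeq start on GRCm38.p6, printed 5' to 3' on the strand of the gene, with CG dinucleotides in capitals. The windows are chr11:95587749-95587948 on the minus strand for Ngfr, chr11:100574689-100574888 on the plus strand for Cnp and chr10:76253586-76253785 on the plus strand for S100b.
Ngfr: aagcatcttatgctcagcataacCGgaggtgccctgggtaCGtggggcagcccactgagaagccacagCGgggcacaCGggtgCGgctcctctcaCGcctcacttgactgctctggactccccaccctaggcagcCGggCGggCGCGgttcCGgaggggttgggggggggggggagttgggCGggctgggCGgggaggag
Cnp: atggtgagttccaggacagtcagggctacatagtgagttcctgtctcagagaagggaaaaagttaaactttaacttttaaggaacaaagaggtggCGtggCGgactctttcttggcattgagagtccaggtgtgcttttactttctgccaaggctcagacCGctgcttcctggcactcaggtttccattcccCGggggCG
S100b: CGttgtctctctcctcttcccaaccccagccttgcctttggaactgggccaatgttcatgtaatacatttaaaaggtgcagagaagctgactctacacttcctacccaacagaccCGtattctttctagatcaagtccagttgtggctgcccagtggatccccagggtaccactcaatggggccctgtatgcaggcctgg
The Ngfr window holds 13 CG dinucleotides at a GC content of 70%, and 77.9% of the 32841 RefSeq windows of this length have fewer. Cnp has 5 CG dinucleotides at 50.5% GC, with 52.6% of windows below it. S100b has 2 at 52% GC, with 24.6% of windows below it, against a median of 4 CG dinucleotides and 51.5% GC over all windows. The letters ACAAAG and ACAATG, cores bound by SOX proteins, and CTTTGA, a core bound by the TCF/LEF factors of Wnt signalling, were searched on both strands. The first SOX core, read on the other strand, overlaps the TCF/LEF core in 5 letters. That SOX core occurs in the Cnp window, on 1 strand, and in 13.6% of all windows, and none of the other searches matched in these 3 windows. The other SOX core occurs in 8.94% and the TCF/LEF core in 11.8% of all windows. A match or its absence describes the letters of the window alone.

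Sox10, the transcription factor that defines the lineage, had 2, 4 and 1 counts in the tdT+GFP+ libraries and 8, 2 and 2 counts in the tdT-GFP+ libraries. The largest value came from kidney 1 of the tdT-GFP+ sort, and the other 5 libraries held at most 4 counts. Over the 3 libraries of a group this gives 0.0777 CPM (exact Poisson 95% interval 0.0312 to 0.160) in tdT+GFP+ cells and 0.143 CPM (0.0737 to 0.249) in tdT-GFP+ cells. The intervals cover counting error only, and they overlap.

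S100b, the calcium-binding protein used as a common Schwann cell and glial stain, had 0, 6 and 1 counts in tdT+GFP+ cells and 4, 0 and 6 counts in tdT-GFP+ cells. Each group had 1 library without a count and 1 library with 6 counts. The pooled level was 0.0777 CPM (0.0312 to 0.160) in tdT+GFP+ cells and 0.119 CPM (0.0570 to 0.219) in tdT-GFP+ cells. The tdT-GFP+ library of kidney 1 held 8 Sox10 and 4 S100b counts, and that of kidney 3 held 2 and 6. Bulk libraries cannot show whether both genes come from the same cells.

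Cdh19, a type II cadherin of the Schwann cell lineage, had 2 counts, both in the tdT+GFP+ library of kidney 2, and 0 in the other 5 libraries. Its pooled level was 0.0222 CPM (0.00269 to 0.0802) in tdT+GFP+ cells. The 0 counts of the tdT-GFP+ cells allow a level of up to 0.0439 CPM, the upper end of their exact Poisson interval. A total of 3 counts over that group would be 0.0357 CPM. No fold is given here, since both groups lie at or under these limits. A fit with no filter on low counts is given in the last section. Sox10, S100b and Cdh19 did not pass the filter on low counts and were not tested in the main fit. A difference between the groups was not detectable at this depth for any of the 3.

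Ngfr, the p75 neurotrophin receptor, was the most abundant of the 6 genes per length of transcript. It stood at 207, 179 and 226 CPM in the tdT+GFP+ libraries and at 208, 247 and 180 CPM in the tdT-GFP+ libraries. The highest and the second lowest library were both tdT-GFP+, and the groups overlapped. The group means were 204 ± 23.8 CPM and 212 ± 33.8 CPM (SD, n = 3 each), with a fold of 0.962 (95% interval 0.759 to 1.22). The log2 difference was -0.06 (SE 0.14), with adjusted p = 0.883 in edgeR. Within kidneys 1, 2 and 3 the log2 difference was -0.01, -0.47 and 0.33. These values rest on the kidney numbers in the labels. Over all genes, deviations from the group means for kidneys 2 and 3 correlated better across the numbers (r of 0.4485 and 0.444) than within them (-0.58 and -0.30). With 3 libraries per group the deviations sum to 0, so these r are not independent of each other. Without replicate 2 of either group, or of both, the log2 difference of Ngfr between the groups turned positive and reached 0.03 to 0.15.

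Ncam1, the neural cell adhesion molecule, stood at 135, 129 and 149 CPM in tdT+GFP+ cells and at 156, 107 and 106 CPM in tdT-GFP+ cells. The tdT-GFP+ library of kidney 1 was the highest of all 6, and the other tdT-GFP+ libraries were the lowest. The means were 138 ± 10.5 CPM and 123 ± 28.7 CPM (SD, n = 3 each), a fold of 1.12 (0.851 to 1.47). The log2 difference was 0.16 (SE 0.17), with adjusted p = 0.689 in edgeR. By kidney it was -0.21, 0.27 and 0.50. The size rests on few libraries: without the tdT-GFP+ library of kidney 1 the log2 difference was 0.39 with adjusted p = 0.144, and without both libraries of kidney 3 it was 0.0042.

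Cnp, the gene of the myelin-associated enzyme 2',3'-cyclic nucleotide phosphodiesterase, had the narrowest range. It stood at 23.1, 24.5 and 25.5 CPM in tdT+GFP+ cells and at 25.2, 25.4 and 25.3 CPM in tdT-GFP+ cells. The tdT-GFP+ libraries lay within the range of the tdT+GFP+ libraries. The means were 24.4 ± 1.21 CPM and 25.3 ± 0.0948 CPM (SD, n = 3 each), a fold of 0.964 (0.851 to 1.09). The log2 difference was -0.05 (SE 0.07), with adjusted p = 0.776 in edgeR, and it was -0.12, -0.05 and 0.01 by kidney. DESeq2 gave adjusted p = 0.872 for Cnp, 0.779 for Ncam1 and 0.924 for Ngfr. The 95% intervals thus leave room for a change of Ngfr by 1.22-fold, of Ncam1 by 1.47-fold and of Cnp by 1.09-fold upwards, and these tests do not show that the groups are alike.

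**Figure D2:**
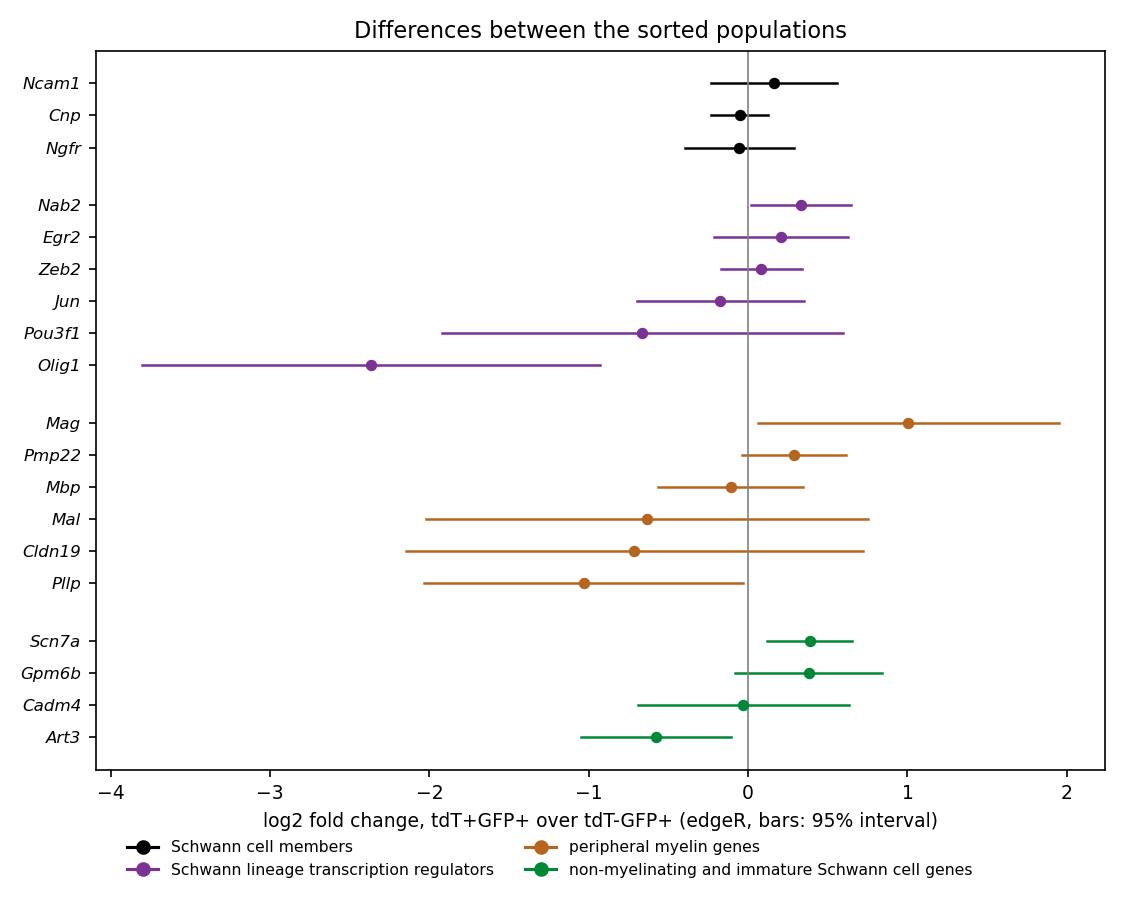
Log2 fold change of tdT+GFP+ over tdT-GFP+ cells (axis in log2 units) with 95% intervals from edgeR as bars, for Ngfr, Ncam1 and Cnp and the tested genes that the text below names from 3 lists of Schwann lineage genes. The intervals of Ngfr, Ncam1 and Cnp all span 0, and none of the genes shown has an adjusted p under 0.05.

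Set per kilobase of exon, the levels over all 6 libraries were 60.3 CPM per kb for Ngfr, 15.03 for Ncam1 and 6.82 for Cnp. They were 0.0658 for S100b, 0.0350 for Sox10 and 0.00251 for Cdh19. Of the 15453 tested genes with a length, 96.0% lay below Ngfr, 81.6% below Ncam1 and 63.2% below Cnp, against 0.757% below S100b, 0.155% below Sox10 and 0% below Cdh19. S100b, Sox10 and Cdh19 had failed the filter that the tested genes passed, so their low places were set in advance. Of all 31815 genes, 9168 had 0 counts in all libraries and so lay below each of these 3. The order Ngfr, Ncam1, Cnp held in all 6 libraries without overlap: the lowest Ngfr value was 51.8 and the highest Ncam1 value 18.0 CPM per kb, and the lowest Ncam1 value was 12.2 and the highest Cnp value 7.01. Sox10 and S100b could not be ordered, since Sox10 ran from 0.0125 to 0.0863 and S100b from 0 to 0.150 CPM per kb. The ratio of Ngfr to Ncam1 per length was 3.86, 3.48 and 3.81 in tdT+GFP+ cells and 3.35, 5.82 and 4.29 in tdT-GFP+ cells, the widest spread lying within the tdT-GFP+ sort.

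**Figure D3:**
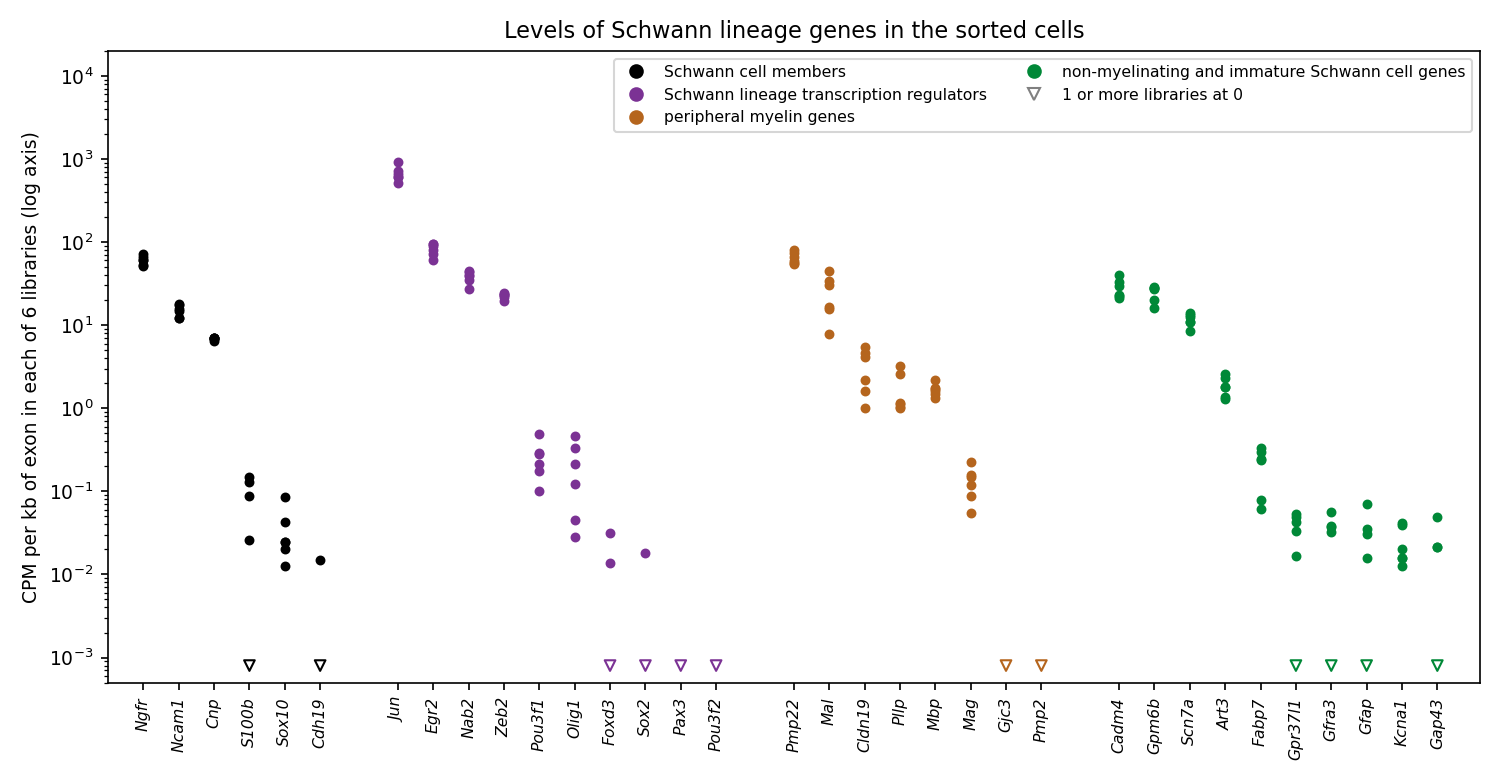
Level in CPM per kilobase of exon (log axis) of the 6 genes and of the genes the text names from 3 Schwann lineage lists in each of the 6 libraries. Each point is a library, and open triangles at the foot mark genes with 1 or more libraries at 0. Ngfr, Ncam1 and Cnp lie above 6 CPM per kb, whereas S100b, Sox10 and Cdh19 lie among the lowest genes shown.

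The other genes of the Schwann lineage likewise included abundant and near-absent ones. Of 13 transcription regulators 9 were tested, with 4 positive and 5 negative log2 differences, a median of -0.01 and 0 called in edgeR, against a median of -0.00039 over all 15462 genes. Jun, the leading factor of the injured Schwann cell and a general early response gene, stood at 2016 ± 345 CPM in tdT+GFP+ and 2274 ± 594 CPM in tdT-GFP+ cells. Zeb2, a repressor needed for Schwann cell maturation and also expressed in mesenchyme, stood at 464 ± 7.87 and 438 ± 51.2 CPM. Egr2, the master factor of myelination, stood at 296.5 ± 25.3 and 257 ± 61.5 CPM, and its corepressor Nab2 at 125 ± 5.63 and 99.6 ± 17.1 CPM. Egr2 and Nab2 were thus abundant where Sox10 was nearly absent, and which cells made them was not tested. Olig1 had the smallest p of the list, at 0.141 ± 0.110 and 0.724 ± 0.270 CPM, with a log2 difference of -2.37 (SE 0.60) and adjusted p = 0.404 in edgeR. These values rest on 2, 3 and 7 counts in tdT+GFP+ and 14, 19 and 27 counts in tdT-GFP+ libraries. Pou3f2 and Pax3 had 0 counts in all libraries, and Sox2 and Foxd3, which were picked out after their values were seen, had 1 and 3 counts in all.

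Among 18 peripheral myelin genes 15 were tested, with 3 positive and 12 negative log2 differences, a median of -0.63 and 0 called. Pmp22, a myelin membrane protein that many other cells make, was the most abundant at 168 ± 25.2 and 138 ± 15.4 CPM. Mal, a lipid raft protein of myelin and of kidney tubules, stood at 54.3 ± 37.0 and 84.1 ± 40.0 CPM, and Cldn19, a claudin of both tissues, at 10.3 ± 8.22 and 16.8 ± 6.91 CPM. Mbp, myelin basic protein, stood at 13.6 ± 1.13 and 14.7 ± 3.74 CPM. Mag, which binds the axon from the myelin side, stood at 0.723 ± 0.166 and 0.356 ± 0.129 CPM, a log2 difference of 1.01 (SE 0.40) with adjusted p = 0.453 in edgeR. Pllp, a myelin and epithelial membrane protein, stood at 2.30 ± 0.151 and 4.71 ± 2.37 CPM, a log2 difference of -1.03 (SE 0.42) with adjusted p = 0.457. Gjc3 and Pmp2 had 0 counts in all libraries. Kidney tubule markers were measured alongside: 9 of 9 were tested, with 3 positive and 6 negative log2 differences and a median of -0.28. The markers of the thick limb and distal tubule were the low ones, at -1.40 for Umod, -1.56 for Slc12a1, -1.38 for Slc12a3 and -1.27 for Calb1. The proximal markers Slc34a1, Lrp2, Slc5a2 and Cubn stood at 0.25, -0.02, 1.31 (SE 0.80) and 0.02. DESeq2 called Slc12a3 lower (adjusted p = 0.0347). Its fit with a kidney block called Umod, Slc12a1, Slc12a3 and Calb1 lower, and edgeR called 0. The summed level of the 9 was 398 to 652 CPM in tdT+GFP+ and 603 to 1338 CPM in tdT-GFP+ libraries, and their part in the myelin gene values was not tested.

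Among 17 genes of non-myelinating and immature Schwann cells 10 were tested, with 4 positive and 6 negative log2 differences, a median of -0.18 and 0 called. Scn7a, an atypical sodium channel gene, did not overlap between the groups, at 97.7 ± 5.34 and 74.7 ± 10.1 CPM, with a log2 difference of 0.39 (SE 0.11) and adjusted p = 0.414 in edgeR. Gpm6b, a membrane proteolipid of glia and neurons, stood at 155 ± 3.74 and 119.5 ± 33.6 CPM, and the adhesion molecule Cadm4 at 60.2 ± 23.2 and 61.4 ± 11.3 CPM. Art3 stood at 5.87 ± 1.06 and 8.75 ± 1.51 CPM, with adjusted p = 0.438. Gap43, Gfra3, Gpr37l1, Gfap, Kcna1 and Fabp7, all named after their values were seen, had 4, 9, 13, 18, 20 and 46 counts over all 6 libraries and did not pass the filter.

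The partners of Ngfr in neurotrophin signalling were all detected. The list of 14 ligands, receptors and adaptors was tested in full, with 5 positive and 9 negative log2 differences, a median of -0.05 and 0 called. Maged1, an adaptor that binds the intracellular part of p75, stood at 523 ± 37.3 and 497 ± 61.2 CPM. Sort1, the sortilin co-receptor for proneurotrophins, stood at 93.5, 94.0 and 118 CPM in tdT+GFP+ and at 121, 135 and 129 CPM in tdT-GFP+ cells. Its groups did not overlap, and the log2 difference was -0.33 (SE 0.11) with adjusted p = 0.438 in edgeR. Sorcs2, another co-receptor of that family, stood at 45.5 ± 4.94 and 39.8 ± 12.5 CPM, and Ntrk2, the receptor of brain-derived neurotrophic factor, at 39.6 ± 26.6 and 39.3 ± 18.9 CPM. Its ligand gene Bdnf stood at 0.893 ± 0.218 and 1.54 ± 0.579 CPM, with a log2 difference of -0.79 (SE 0.36) and adjusted p = 0.484.

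Of 9 neuregulin and ErbB genes 8 were tested, with 2 positive and 6 negative log2 differences, a median of -0.06 and 0 called. Erbb2 stood at 57.5 ± 2.50 and 55.6 ± 1.18 CPM, and Erbb3, the receptor that binds neuregulin in Schwann cells, at 12.6 ± 0.922 and 16.8 ± 7.20 CPM. Bace1 and Adam17, the proteases that process neuregulin, stood at 154 ± 3.58 and 155 ± 15.1 CPM and at 90.3 ± 0.537 and 92.7 ± 2.79 CPM. Adgrg6, an adhesion receptor needed for myelination, stood at 6.90 ± 2.17 and 11.5 ± 4.38 CPM, with adjusted p = 0.472 in edgeR. Nrg4, a neuregulin gene, stood at 0.431 ± 0.0827 and 0.223 ± 0.0734 CPM, with adjusted p = 0.471.

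Of 12 partners of NCAM and polysialyltransferases 11 were tested, with 5 positive and 6 negative log2 differences, a median of -0.06 and 0 called. Fgfr1, a receptor that NCAM engages, stood at 241 ± 25.0 and 236 ± 15.97 CPM, and the kinase gene Fyn at 63.0 ± 8.51 and 70.3 ± 7.59 CPM. Nrcam and Nfasc, adhesion molecules of the L1 family, did not overlap between the groups, at 31.8 ± 3.46 and 23.6 ± 4.93 CPM and at 11.6 ± 1.81 and 8.83 ± 0.729 CPM. Their log2 differences were 0.43 (SE 0.17) and 0.40 (SE 0.15), with adjusted p = 0.456 and 0.445 in edgeR. St8sia2, which adds polysialic acid to NCAM, did not overlap either and lay on the other side, with a log2 difference of -0.74 (SE 0.28) and adjusted p = 0.447.

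Relatives of the near-absent genes ranged from abundant to undetected. Of 15 genes on the S100 list 13 were tested, with 4 positive and 9 negative log2 differences, a median of -0.15 and 0 called. The list includes Ager and S100pbp, which are not S100 genes and had negative log2 differences of -0.24 and -0.02. S100a11 stood at 430 ± 28.3 and 369 ± 47.5 CPM and S100a6 at 272 ± 9.53 and 240 ± 6.89 CPM, with adjusted p = 0.503 and 0.459 in edgeR. S100g, the calbindin of calcium transport in the tubule, stood at 2.56 ± 0.938 and 5.95 ± 3.27 CPM. Of 13 SoxE and type II cadherin relatives 6 were tested, with 1 positive and 5 negative log2 differences, a median of -0.52 and 0 called in edgeR. Cdh11, a mesenchymal cadherin, stood at 934 ± 87.2 and 880 ± 144 CPM, and Cdh7, Cdh8 and Cdh20 had 0 counts in all libraries. Sox8, a close relative of Sox10, stood at 0.580, 0.516 and 0.609 CPM in tdT+GFP+ and at 1.19, 1.46 and 2.63 CPM in tdT-GFP+ cells. Its log2 difference was -1.62 (SE 0.38), with adjusted p = 0.394 in edgeR and 0.0485 in DESeq2, the latter rising to 0.323 with the kidney as a block. Sox9, also expressed in injured tubules, stood at 13.4 ± 1.73 and 25.1 ± 11.1 CPM, with a log2 difference of -0.91 (SE 0.30) and adjusted p = 0.438 in edgeR.

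Markers of other cells of the nerve and of the neural crest were measured too. Of 12 neuron and axon markers 4 were tested, with 1 positive and 3 negative log2 differences, and Th, the tyrosine hydroxylase gene of sympathetic neurons, had 0 counts in all libraries. The summed neuron list ran from 26.6 to 37.1 CPM in tdT+GFP+ and from 27.95 to 42.0 CPM in tdT-GFP+ libraries, with Tubb3, a neuronal tubulin, the highest on average at 21.2 ± 6.05 and 20.3 ± 5.25 CPM. Stmn2 ranged from 0.0761 to 0.548 CPM in tdT+GFP+ and from 0.411 to 5.27 CPM in tdT-GFP+ cells, with adjusted p = 0.438 in edgeR. Of 6 melanocyte markers, another neural crest lineage that uses Sox10, 2 were tested, and Tyr and Tyrp1 had 0 counts in all libraries. Mitf, a melanocyte factor that other cells also use, stood at 60.3 ± 1.83 and 49.8 ± 15.6 CPM and made up most of that list's mean level. The perineurial list summed to 146 to 164 CPM and 141 to 164 CPM, led by the glucose transporter gene Slc2a1, which many cells use.

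Markers of other kidney cells were measured beside the 6 genes. All 6 endothelial markers had negative log2 differences with an unadjusted p under 0.05 in edgeR, with a median log2 difference of -1.28 and a summed level of 366 to 612 against 754 to 1376 CPM. DESeq2 called 5 of them lower in tdT+GFP+ cells, or 4 with the kidney as a block, in which Pecam1 had an adjusted p of 0.518, and edgeR called 0. Macrophage and leukocyte markers summed to 347 to 1303 CPM in tdT+GFP+ and to 244 to 767 CPM in tdT-GFP+ libraries, with a median of 0.62 and 0 called. The part of these cells in the levels of Ngfr, Ncam1 and Cnp was not tested.

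Across the 6 libraries, Ncam1, Ngfr and Cnp were set beside Acta2, Axin2, Pdgfrb, Pdgfra and Col1a1. Ncam1 and Acta2 had a Pearson r of 0.954 and a Spearman rho of 0.943 on log2 CPM. Of 11117 genes, 1.03% had an r with Acta2 at least as high. Without the 2 libraries farthest from the median of Acta2, which are replicates 2 and 3 of tdT-GFP+ cells, r was 0.711. Ncam1 and Pdgfrb, a receptor of pericytes and fibroblasts, had an r of 0.924. With Col1a1 the r of Ncam1 was 0.842 and with Pdgfra 0.441. Ngfr and Axin2 had an r of 0.945 and a rho of 0.886, and 1.21% of genes had an r with Axin2 at least as high. The r of Ngfr and Axin2 was 0.798 without replicate 3 of tdT-GFP+ and replicate 2 of tdT+GFP+ cells. With Pdgfra the r of Ngfr was 0.802, with Col1a1 0.498 and with Pdgfrb 0.103. The crossed pairs were lower, with an r of 0.269 for Ncam1 and Axin2 and 0.00877 for Ngfr and Acta2, but the latter was 0.990 without replicates 2 and 3 of tdT-GFP+ cells and so rests on those libraries. Cnp had an r between -0.332 and 0.146 with Acta2, Axin2, Pdgfrb, Pdgfra and Col1a1. These values describe 6 libraries that share 3 kidneys and carry no p, and the pairs with Acta2, Axin2 and the receptor and collagen genes were picked after values were seen.

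**Figure D4:**
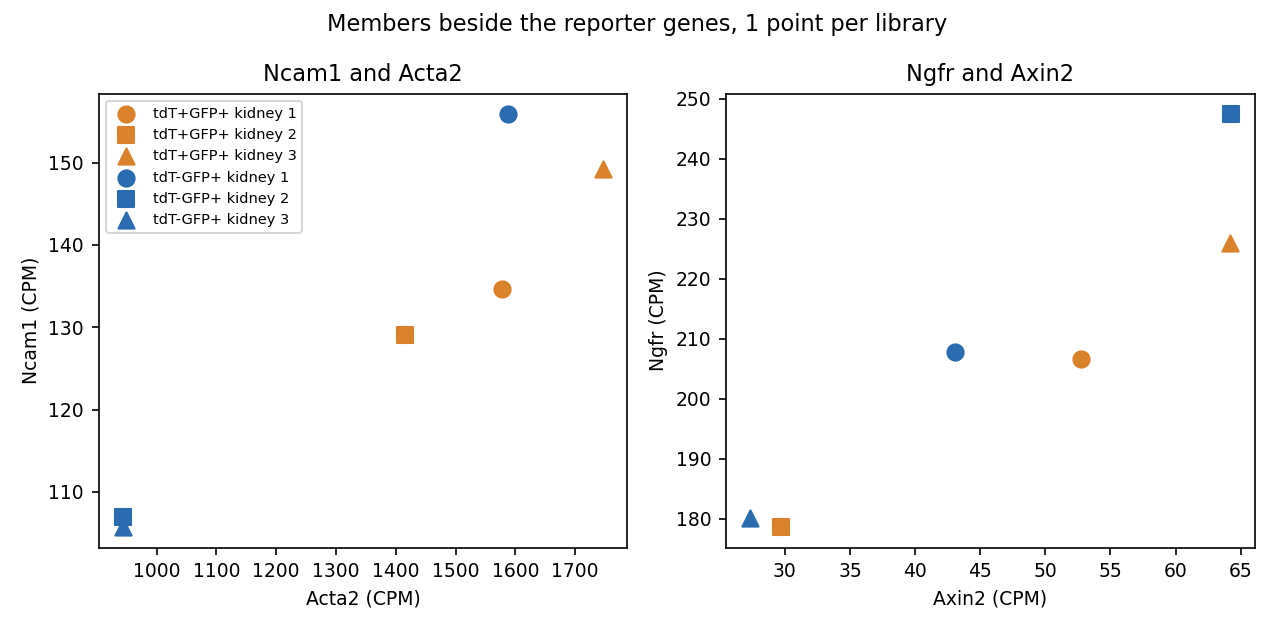
Level of Ncam1 against Acta2 (left) and of Ngfr against Axin2 (right), both axes in CPM and not starting at 0. Each point is 1 of 6 libraries, coloured by group with 1 symbol per kidney, and on log2 CPM r is 0.954 for the left and 0.945 for the right panel.

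By the same measure the genes most like each abundant member included Sec31a (r = 0.995) and Dync1li2 (0.994) for Ncam1. They were Kifc1 (0.998), Lzts2 (0.997) and Tceal8 (0.991) for Ngfr, and Maf1 (0.993), Hibch (0.975) and Ccl19 (0.975) for Cnp, among genes with a mean of at least 5 CPM. With 6 libraries and 11117 genes such values are a description of these libraries. The members had low correlations with each other: Cnp and Ncam1 -0.138, Cnp and Ngfr 0.245, and Ncam1 and Ngfr 0.0725.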

How the data were processed

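Poly(A) RNA went into strand-specific libraries, per the labels' protocols. Not given in the sources used here are the strand setting of the counting and the annotation release. Deposited values are RSEM estimated counts per gene and already whole. Tools in the submitters' processing notes are STAR 2.6.1 and RSEM 1.2.28, and mm10 and GRCh38 appear there with no stated role. ERCC rows (92, all 0) were left out. GENCODE M21 (GRCm38), which held 31748 of the 31815 identifiers, gave coordinates and exon lengths.

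edgeR 4.0.16 in R 4.3.3 (filterByExpr, TMM, robust quasi-likelihood test, group as the only term, Benjamini-Hochberg over all tested genes, threshold 0.05) gave the tests. CPM use TMM-scaled totals, and log2 CPM a prior count of 2. The procedure was tested on simulated data. Alternatives were DESeq2 1.42.0, limma 3.58.1 (voom), other scalings and filters, the kidney as a block, and leaving out each library or kidney. The p-values measure the spread between libraries of 3 kidneys.

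Same-numbered libraries share a kidney per the labels, which pairs them. Over genes, their deviations from group means had r of 0.04 (kidney 1), -0.58 (kidney 2) and -0.30 (kidney 3). Across numbers, r was 0.4485 for tdT+GFP+ 2 with tdT-GFP+ 3 and 0.444 for tdT+GFP+ 3 with tdT-GFP+ 2. The pairing of kidneys 2 and 3 is thus not seen in these r. Since the deviations sum to 0 in each group, the r are tied together and cannot decide whether the numbers are right. Values by kidney or with the block rest on the labels. The members and lists were chosen with earlier results of these data known. Named are the 6 members, Axin2, Acta2, a few other list members, the genes most correlated with each tested member, and part of those that rank in a list among the top 4 by level or the top 2 by p, or are at 0 throughout. Some results among them are not reported here.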

Additional observations from a re-analysis of the deposited data

How the results depend on the processing

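Across 17 alternatives, none of the tested members Cnp, Ncam1 and Ngfr was called. The log2 difference of Cnp (-0.09 to -0.0023) and Ncam1 (0.0042 to 0.41) kept its direction. Their adjusted p ran from 0.694 and 0.144 upwards. That of Ngfr ran from -0.24 to 0.15, with adjusted p from 0.540 upwards, and turned positive in 3 settings. It was 0.03 when the tdT+GFP+ library of kidney 2 was left out, 0.06 when the tdT-GFP+ library of that kidney was, and 0.15 when both were. The cause was not tested. Over all genes, edgeR and limma called 0 in each setting, DESeq2 called 281, and DESeq2 with the kidney as a block called 278. In the 15 alternatives with 0 genes called, no member could be called either. With the replicate block in edgeR the log2 difference was -0.05 for Cnp, 0.19 for Ncam1 and -0.05 for Ngfr, and no member's call changed. With no filter on low counts Sox10 had a log2 difference of -0.82 (SE 0.86, adjusted p = 0.699 in edgeR), S100b of -0.58 (SE 1.259, adjusted p = 0.872) and Cdh19 of 2.62 (SE 2.07, adjusted p = 0.695). These rest on 19, 17 and 2 counts, so that few counts limit them beside the spread between libraries. Set on the longest transcript, Cnp stood at 8.55 and Ncam1 at 19.8 CPM per kb, with the order of the abundant genes kept.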
